A study of Rattus norvegicus with 12 samples.

Results

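The genes described here encode 10 plasma carrier proteins that the liver is known to secrete, most of them classed as negative acute-phase proteins: Alb, Ttr, Rbp4, Ahsg, Fetub, Gc, Afm, Ambp, Serpina6 and Serpina7. They were chosen by name, and every probe set whose platform annotation gives exactly 1 of these symbols was used, which made 12 of 15866 probe sets and 10 of 10411 genes. Alb and Gc had 2 probe sets each, which were averaged, and the other genes had 1. Rats with a thermal injury were compared with sham rats, which undergo the procedure without the burn, at days 2, 4 and 7 after the injury, with 3 samples a day and a signal of each group per sample. The 3 samples of day 1 were left out, because their identifiers do not match those of the other days. The labels give no tissue, strain, sex or age. They also leave unsaid whether different samples stand for different animals, so the p-values measure only the spread between these samples. Every value is a log2 ratio of 2 Affymetrix array signals as the authors deposited it, centred on the median of its array. Nothing states which signal was divided by which. The ratio is taken here as injury over sham, since the labels give injured rats as channel 2 and sham rats as channel 1. On that likely but unstated order, on which every sign below depends, a value above 0 means more RNA in injured rats.

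In the acute-phase response, cytokines released after tissue damage make the liver produce more of some plasma proteins and less of others. Albumin, transthyretin, the retinol carrier and the fetuins are counted in textbooks among the proteins whose plasma level falls. Plasma levels also follow leakage from vessels and dilution, which RNA does not measure. In bulk samples such as these, fewer cells of a type and less RNA per cell cannot be told apart.

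The carriers were among the brightest genes of the arrays. As a measure of brightness, 2 whole numbers were found whose quotient gave the deposited ratio, and the smaller was taken, as a median over the 9 arrays. For 11 of the 12 carrier probe sets no pair of numbers up to 3000 was found in any array, as for 7.75% of all probe sets, so their signals were probably larger than that, and they have no order among themselves. The remaining one, that of Serpina7, is dim beside them, with such pairs in 6 of 9 arrays. It lay at percentile 35.7 of genes by brightness, above the lowest 25% that 1 of the alternative fits left out as dim. The other 9 genes lay among the brightest 10% of genes, and so did 11 of 12 measured hepatocyte markers, such as Cps1, Apob and Tdo2. Among markers of other cells the counts were 5 of 9 for macrophages, 1 of 4 for red cells, 1 of 12 for stellate cells, 0 of 13 for exocrine pancreas, 1 of 10 for skeletal muscle, 0 of 6 for skin and 0 of 7 for kidney. Probe sets differ in how strongly they bind, so these counts are a description. Array signals can flatten at very bright probe sets, and whether that narrowed the ratios of these genes was not tested.

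The sequences before 4 of these genes are shown as a description, and no result below rests on them. Alb and Ttr are the main carriers of the list, and Rbp4 and Serpina7 carry the same ligands as Ttr. Each run is the 250 bases before the gene's start in RefSeq (GRCr8), 5′ to 3′ on the gene's strand. Capitals mark matches on either strand to the 6 motifs searched: GTTAAT, part of the site of the liver factor HNF1; TGTTTNC, the core of forkhead (FOXA) sites; CAAAGTCCA, an HNF4 site; TTGCGNAA, a C/EBP site; TTCNNNGAA, the site of STAT factors; and TATAAA, the TATA box. Alb lies at chr14:17906980-17907229 (minus strand), Ttr at chr18:12218508-12218757 (plus strand), Rbp4 at chr1:245313552-245313801 (minus strand) and Serpina7 at chrX:107457682-107457931 (minus strand).
Alb: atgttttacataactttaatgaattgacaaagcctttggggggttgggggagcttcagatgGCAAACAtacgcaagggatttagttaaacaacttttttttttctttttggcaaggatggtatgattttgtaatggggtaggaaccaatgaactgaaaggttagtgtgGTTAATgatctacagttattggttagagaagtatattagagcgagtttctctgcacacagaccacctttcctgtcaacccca
Ttr: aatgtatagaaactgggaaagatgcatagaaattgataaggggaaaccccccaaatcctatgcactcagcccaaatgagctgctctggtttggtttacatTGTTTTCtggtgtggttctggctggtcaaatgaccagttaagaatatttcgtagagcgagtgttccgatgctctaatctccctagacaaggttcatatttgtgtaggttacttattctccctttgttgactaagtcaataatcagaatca
Rbp4: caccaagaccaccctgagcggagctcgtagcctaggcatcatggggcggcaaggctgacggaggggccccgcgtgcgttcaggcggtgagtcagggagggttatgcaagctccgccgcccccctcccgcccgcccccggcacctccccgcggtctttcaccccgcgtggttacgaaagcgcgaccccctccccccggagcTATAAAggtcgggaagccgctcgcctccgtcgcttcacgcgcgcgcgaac
Serpina7: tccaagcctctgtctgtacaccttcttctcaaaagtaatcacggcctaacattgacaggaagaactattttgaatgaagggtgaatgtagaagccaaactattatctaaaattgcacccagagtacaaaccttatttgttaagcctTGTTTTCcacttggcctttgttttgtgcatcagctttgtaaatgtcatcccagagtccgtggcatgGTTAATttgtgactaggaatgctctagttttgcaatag
Of the 10 genes, 7 had an entry in the table. GTTAAT was found in 3 of the 7 (Alb, Gc and Serpina7), against 6.45% of 33469 promoters of the same length. TGTTTNC was found in 5 of the 7 (Alb, Ttr, Ahsg, Ambp and Serpina7), against 18.3% of promoters. TTGCGNAA was found in Ahsg and TATAAA in Rbp4, against 0.729% and 12.9% of promoters. The STAT motif was in 0 of the 7 windows, against 7.67% of promoters, and the HNF4 motif in 0, against 0.338%. A match is a description of these letters only.

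Over days 2, 4 and 7 together, none of the 10 carrier genes passed the threshold of 0.05, and for 9 of them the interval allowed only small changes. Over these 9, the 95% intervals of the mean ratio reached from 0.826-fold (the lower bound of Afm) to 1.31-fold (the upper bound of Gc). In this limma fit 34 of 10411 genes passed, which is 0.327% of all genes. Adjusted p of the 10 genes lay between 0.244 and 0.992, and 2 of them, Serpina7 and Gc, both higher, had an unadjusted p under 0.05, against 10.1% of all genes. The means were above 0 for 4 and below 0 for 6 genes, with a median of -0.027 on the log2 scale beside 0.0027 for all genes. The carriers varied little between samples of a day: the within-day SD of the log2 ratio had a median of 0.16 over the 10 genes, against 0.21 over the 1033 other genes of the brightest 10% and 0.38 over all genes.

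**Figure D1:**
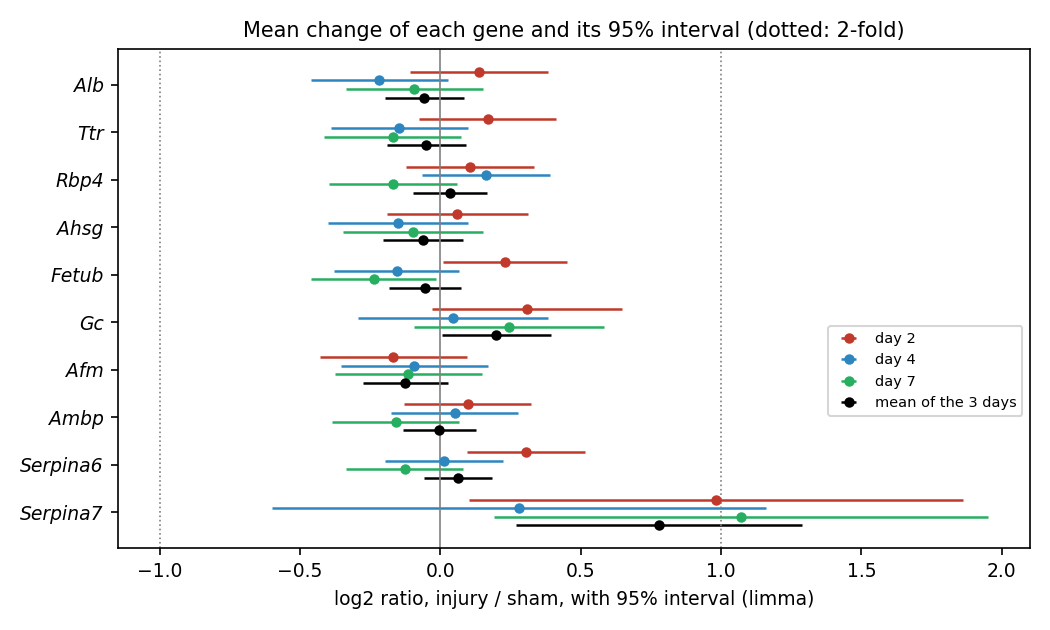
Mean log2 ratio of injury over sham for each carrier gene at days 2, 4 and 7 and over the 3 days (n = 3 samples a day), with the 95% interval of the limma fit as a bar and dotted lines at a 2-fold change. For every gene but Serpina7 all 4 intervals lie between the dotted lines.

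Albumin, the main protein of plasma and the carrier of fatty acids and many drugs, had log2 ratios of 0.023, 0.26 and 0.13 in samples 1 to 3 of day 2, -0.46, -0.21 and 0.019 in those of day 4 and -0.14, -0.0012 and -0.13 in those of day 7. All 3 samples of day 2 were above 0 and all 3 of day 7 below it (as in 2.09% of all genes), the middle one of day 7 by very little. Over the 9 samples Alb stood at 0.961-fold (95% interval 0.871 to 1.06, adjusted p = 0.813). Its lowest value was that of sample 1 of day 4, and the day 4 mean was -0.22 ± 0.24 (SD, n = 3; adjusted p = 0.537). The 2 probe sets of Alb were close in most samples. Probe set 1367555_at had 0.032, 0.38 and 0.16 at day 2, -0.55, -0.20 and 0.041 at day 4 and -0.13, -0.15 and -0.12 at day 7. Probe set 1367556_s_at had 0.015, 0.15 and 0.089, then -0.38, -0.21 and -0.0033, then -0.15, 0.15 and -0.15 on the same days. They were apart by more than 0.2 in 2 samples, sample 2 of day 2 and sample 2 of day 7, and in the last of these they had opposite signs.

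Afm and Gc belong to the albumin family. Afm encodes afamin, a vitamin E-binding protein of plasma, and in the RefSeq order its gene is followed by Afp and then Alb. Its ratios were -0.30, -0.18 and -0.024 in samples 1 to 3 of day 2, -0.23, -0.29 and 0.25 in those of day 4 and -0.21, -0.036 and -0.10 in those of day 7. They were below 0 in 8 of 9 samples, with sample 3 of day 4 as the exception, and the mean was 0.917-fold (95% interval 0.826 to 1.02, adjusted p = 0.582). Afp, the fetal relative between them, had a mean log2 ratio of -0.18 (SE 0.14, adjusted p = 0.725).

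Gc encodes the vitamin D-binding protein, which also captures actin released from damaged cells. Averaged over its probe sets, Gc was above 0 in 6 of 9 samples, with 0.32, 0.23 and 0.38 in samples 1 to 3 of day 2, -0.23, -0.17 and 0.53 in those of day 4 and 0.30, 0.51 and -0.074 in those of day 7. The mean was 1.15-fold (95% interval 1.00 to 1.31, adjusted p = 0.479). This mean joined 2 probe sets that disagreed. Probe set 1368288_at had 0.089, 0.25 and 0.33 at day 2, -0.35, -0.11 and 0.24 at day 4 and -0.18, 0.073 and -0.037 at day 7. Probe set 1368289_at had 0.55, 0.20 and 0.44, then -0.11, -0.23 and 0.83, then 0.77, 0.95 and -0.11 on those days. Probe set 1368289_at exceeded 1368288_at by up to 0.95 (sample 1 of day 7), and over the 9 arrays the 2 sets correlated at r = 0.42, where those of Alb correlated at 0.82. In a fit of probe sets, 1368288_at had a mean of 0.034 (SE 0.072) and 1368289_at one of 0.37 (SE 0.13), and neither passed (limma adjusted p = 0.905 and 0.328). The mean of Gc above 0 thus came mainly from 1 of its probe sets.

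**Figure D2:**
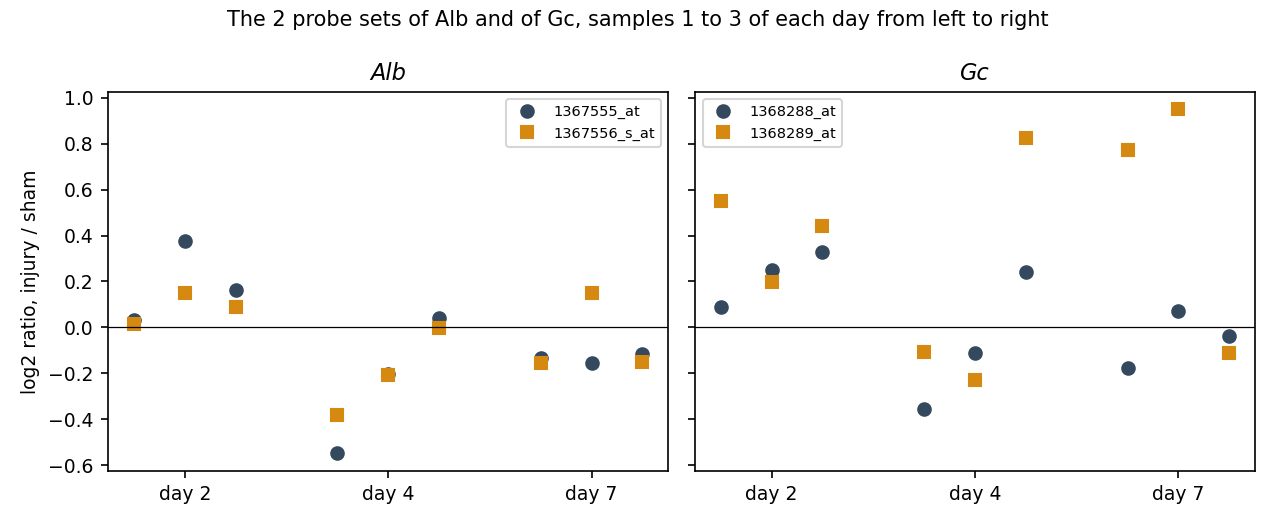
Log2 ratio of injury over sham for each of the 2 probe sets of Alb and of Gc, with samples 1 to 3 of a day from left to right. The probe sets of Alb lie close together in most samples, while 1368289_at of Gc lies well above 1368288_at in samples 1 and 2 of day 7 and in samples 1 of day 2 and 3 of day 4.

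Ttr, Rbp4 and Serpina7 carry thyroid hormone and retinol. Ttr encodes transthyretin, which binds thyroxine and, through the retinol-binding protein, vitamin A. Its ratios were -0.028, 0.32 and 0.21 in samples 1 to 3 of day 2, -0.24, -0.29 and 0.088 in those of day 4 and -0.19, -0.14 and -0.19 in those of day 7. The 3 samples of day 7 lay close together and below 0, at a mean of -0.17 ± 0.029 (SD, n = 3; adjusted p = 0.587). They also lay below all 3 samples of day 2, as in 7.15% of all genes. Over the 3 days Ttr stood at 0.966-fold (95% interval 0.876 to 1.07, adjusted p = 0.842). Rbp4 encodes the retinol carrier of plasma, and its ratios were 0.075, 0.13 and 0.11 in samples 1 to 3 of day 2, 0.15, 0.077 and 0.27 in those of day 4 and -0.16, 0.018 and -0.36 in those of day 7. It was above 0 in all 6 samples of days 2 and 4 and in 1 of 3 at day 7, and its mean was 1.02-fold (95% interval 0.934 to 1.12, adjusted p = 0.891). At day 4, Rbp4 averaged 0.16 ± 0.10 and Ttr -0.15 ± 0.21 (SD, n = 3 each), a difference between genes that was not tested.

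Serpina7 encodes thyroxine-binding globulin, which binds thyroid hormone more tightly than transthyretin does, and which in rats is known as a protein of early life that is scarce in adults. Its ratios, from a dim probe set, were 0.78, 2.24 and -0.078 in samples 1 to 3 of day 2, 0.16, -0.14 and 0.82 in those of day 4 and 0.75, 0.57 and 1.90 in those of day 7. They were above 0 in 7 of 9 samples, including all 3 of day 7 (as in 15.6% of all genes), and ranged from -0.14 to 2.24. The mean was 1.72-fold (95% interval 1.21 to 2.44, adjusted p = 0.244), the highest mean and the widest interval of the 10 genes. The within-day SD of its log2 ratio was 0.84, against at most 0.30 for the other carriers. Its highest ratios did not come from its smallest signals. With larger numbers allowed, the pairs found were 4425 and 1021 in sample 2 of day 2 and 3697 and 888 in sample 3 of day 7. The smallest pair was 142 and 91, in sample 2 of day 7.

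Serpina6 encodes corticosteroid-binding globulin, which carries cortisol-like hormones and releases them at sites of inflammation. Its ratios were 0.16, 0.34 and 0.41 in samples 1 to 3 of day 2, -0.056, -0.0044 and 0.10 in those of day 4 and -0.19, -0.081 and -0.11 in those of day 7. All 3 samples of day 2 were above 0 and above all samples of days 4 and 7, and all 3 of day 7 were below 0. Day 2 lay wholly above day 4 in 7.03% of all genes and wholly above day 7 in 7.15%. In 2.09% of all genes, all 3 samples of day 2 were above 0 and all 3 of day 7 below it. The day 2 mean was 0.31 ± 0.13 (SD, n = 3; 1.24-fold, interval 1.07 to 1.43), the smallest p of the carriers on that day, and it did not pass (adjusted p = 0.399). Over the 3 days Serpina6 stood at 1.05-fold (95% interval 0.961 to 1.14, adjusted p = 0.751).

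Ahsg and Fetub encode the fetuins A and B, cystatin-related proteins of which fetuin A keeps calcium phosphate in solution and fetuin B, as known from mice, inhibits a protease of the egg. The genes are neighbours in the RefSeq order, in a row that also holds Hrg and the kininogen gene Kng2l1. Fetub had ratios of 0.053, 0.31 and 0.33 in samples 1 to 3 of day 2, -0.24, -0.073 and -0.16 in those of day 4 and -0.33, -0.14 and -0.24 in those of day 7. The samples of day 2 were all above 0 and those of days 4 and 7 all below it, so day 2 did not overlap with day 4 or day 7. The means were 0.23 ± 0.15 at day 2, -0.16 ± 0.083 at day 4 and -0.24 ± 0.093 at day 7 (SD, n = 3 each; limma adjusted p = 0.565, 0.659 and 0.368). Ahsg had -0.15, 0.095 and 0.24 in samples 1 to 3 of day 2, -0.33, -0.19 and 0.075 in those of day 4 and -0.16, -0.10 and -0.030 in those of day 7, with day 2 values on both sides of 0. Over the 3 days Fetub stood at 0.963-fold (95% interval 0.881 to 1.05, adjusted p = 0.802) and Ahsg at 0.958-fold (95% interval 0.867 to 1.06, adjusted p = 0.799).

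Ambp encodes a precursor that is cut into the lipocalin alpha-1-microglobulin, which binds haem, and bikunin, a protease inhibitor. Its ratios were -0.024, 0.062 and 0.25 in samples 1 to 3 of day 2, -0.12, 0.094 and 0.18 in those of day 4 and -0.15, -0.080 and -0.25 in those of day 7. The 3 samples of day 7 were below 0, as in 18% of all genes and 40.9% of the other genes of the brightest 10%. Those of days 2 and 4 lay on both sides of 0. The mean over the 3 days was 0.998-fold (95% interval 0.911 to 1.09, adjusted p = 0.992), the nearest to no change of the 10 genes.

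**Figure D3:**
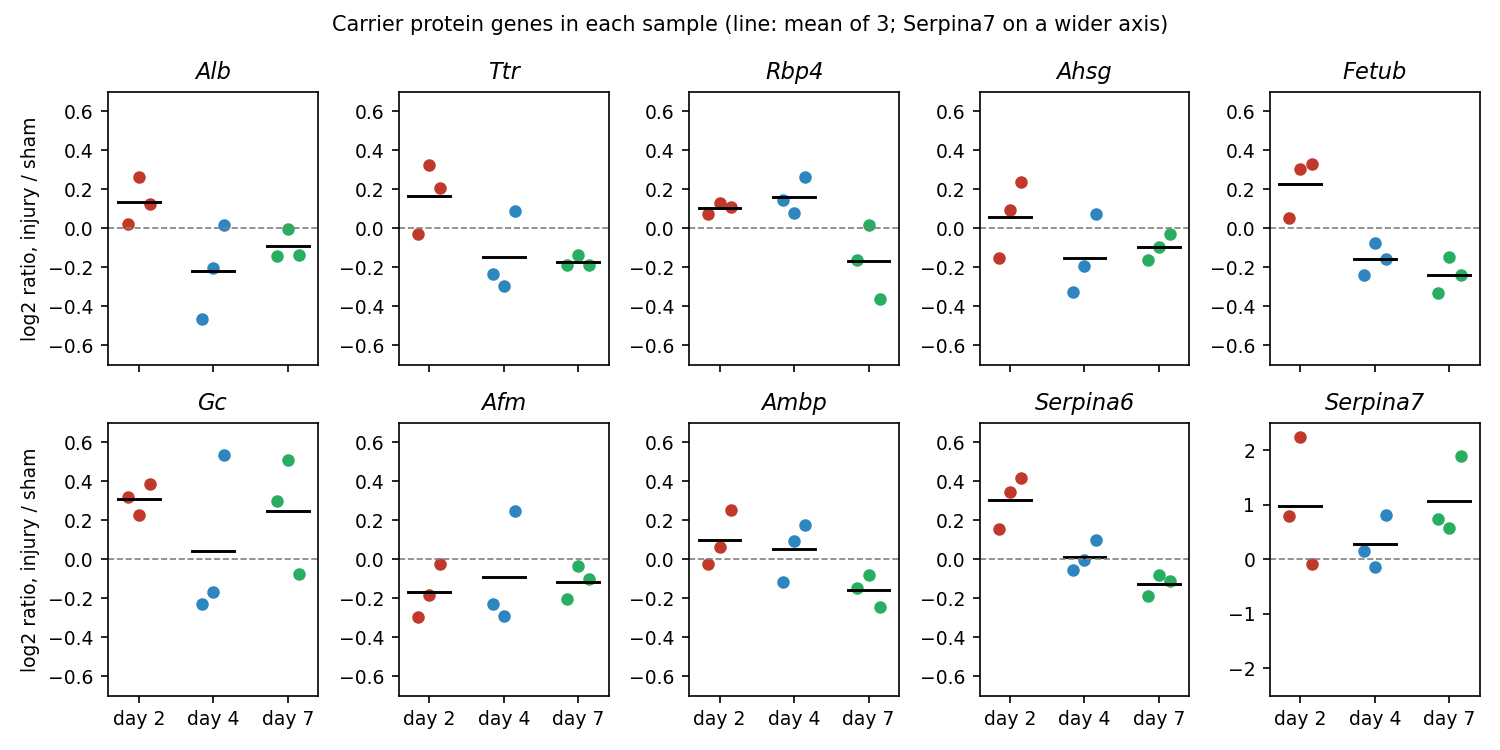
Log2 ratio of injury over sham for each carrier gene, with 1 point per sample, the mean of each day as a line and a dashed line at 0. In Alb, Ttr, Rbp4, Fetub, Ambp and Serpina6 every day 2 point lies above every day 7 point, as in 7.15% of all genes. In Ahsg, Afm, Gc and Serpina7 the days overlap, and Serpina7 needs a wider axis.

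At day 2, 9 of 10 day means of the carriers were above 0, with Afm as the exception (median 0.15). Day 2 means were above 0 in 50.8% of all genes and 62.3% of the other bright genes. None of the carriers passed (limma; 15 of all genes passed, or 0.144%), and 3 of 10, namely Serpina6, Serpina7 and Fetub, had an unadjusted p under 0.05, against 8.52% of all genes. For the 9 bright carriers the intervals reached from 0.742-fold to 1.57-fold. All 3 samples were above 0 for 5 of 10 carriers (Alb, Rbp4, Fetub, Gc and Serpina6), against 13.8% of all genes and 21.7% of the other bright genes. The median of the 10 carriers was 0.038, 0.24 and 0.22 in samples 1 to 3, and that of the other bright genes -0.055, 0.18 and 0.036.

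At day 4 the samples disagreed. The median of the carriers was -0.23, -0.15 and 0.14 in samples 1 to 3, with 8, 8 and 1 of 10 genes below 0. The other bright genes had medians of 0.056, 0.065 and 0.13, so in samples 1 and 2 the median of the carriers lay below theirs. The day means were above 0 for 5 and below 0 for 5 carriers (median -0.040), and without sample 3 all but 2 were below 0 (median -0.18). No carrier passed and none had an unadjusted p under 0.05, where 0 of all genes passed (0%) and 10.7% had an unadjusted p under 0.05 (limma). All 3 samples of day 4 were below 0 for Fetub, as in 16.2% of all genes and 11.3% of the other bright genes. They were above 0 for Rbp4, as in 18.3% of all genes and 38.5% of the other bright genes. Intervals of the 9 bright carriers reached from 0.726-fold to 1.31-fold. Markers of the exocrine pancreas differed between the same samples: the median of 13 such genes came to 0.10, 2.62 and 1.38 in the 3 samples of day 4, and lay between -0.23 and 0.24 in the samples of days 2 and 7. Over the 3 days together, 10 of these 13 had a mean above 0 and 3 below it (median 0.39). The highest were Cpa1 at 1.01 and Amy2a3 at 0.97, which did not pass. Only Cela1, an elastase, passed, and it was lower over the 3 days, as were 0.163% of all genes (log2 -0.46, SE 0.078, adjusted p = 0.034). Its ratios were -0.67, -0.48 and -0.87 at day 2, 0.10, 0.23 and 0.20 at day 4 and -0.85, -0.59 and -1.20 at day 7. No gene of that list passed on a single day. The call of Cela1 held in 8 of 17 alternative fits by gene. The median of 4 red cell markers, such as Hbb and Alas2, was -0.37, -0.093 and 0.45 in the day 2 samples, 0.46, 0.51 and 0.83 in those of day 4 and 0.56, 0.41 and 0.037 in those of day 7. That of 6 skin markers, mostly keratins, came to 0.13, -0.19 and 0.26 at day 2, 0.80, 0.51 and 0.40 at day 4 and 0.70, 0.28 and 1.19 at day 7. The part of the pancreas, red cell and skin markers in the carrier values was not tested.

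At day 7, 8 of 10 day means were below 0, those of Gc and Serpina7 being the exceptions (median -0.12), and the other bright genes were low as well. Day 7 means were above 0 in 48.4% of all genes and 22.2% of the other bright genes. All 3 samples were below 0 for 7 carriers (Alb, Ttr, Ahsg, Fetub, Afm, Ambp and Serpina6), against 18% of all genes but 40.9% of the other bright genes. For Alb this is the mean of its probe sets, as 1367556_s_at had 0.15 in sample 2. The median of the carriers was -0.16, -0.058 and -0.12 in samples 1 to 3, and that of the other bright genes -0.060, -0.10 and -0.26. With each array centred on the other bright genes instead of on all probe sets, 6 of 10 carriers were above 0 at day 7 (median 0.020), 9 of 10 at day 2 (median 0.10) and 2 of 10 at day 4 (median -0.12), and again none passed. No carrier passed at day 7 in limma (5 of all genes did, or 0.048%), and 2, Serpina7 and Fetub, had an unadjusted p under 0.05, against 12.4% of all genes. Intervals of the 9 bright carriers reached from 0.727-fold to 1.50-fold.

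Whether the carriers changed between days was tested directly. In the F test over the 3 days none passed (limma; adjusted p from 0.302 to 0.971; 2 of all genes passed, or 0.0192%), and Fetub and Serpina6 had an unadjusted p under 0.05, against 12.1% of all genes. Between days 4 and 2, 8 of 10 carriers had a lower mean at day 4, with a median difference of -0.28 on the log2 scale, beside 0.050 over the other bright genes and 0.015 over all genes. Centred on the other bright genes the median difference was -0.31, with 8 of 10 lower. None of the carriers passed (lowest adjusted p 0.480 for Fetub, difference -0.39), and Fetub and Alb (-0.35, adjusted p = 0.568) had an unadjusted p under 0.05, against 8.66% of all genes. In this limma fit 0 of all genes passed (0%; 902 had an unadjusted p under 0.05). Between days 7 and 2, 8 of 10 carriers had a lower mean at day 7, with a median difference of -0.24 on the log2 scale, beside -0.20 over the other bright genes and -0.014 over all genes. For 6 carriers (Alb, Ttr, Rbp4, Fetub, Ambp and Serpina6) every sample of day 7 lay below every sample of day 2, against 7.15% of all genes and 20.1% of the other bright genes. For 3 of them (Alb, Fetub and Serpina6) the samples of day 2 were all above 0 and those of day 7 all below it, as in 2.09% of all genes. The same 3 genes had every sample of day 4 below every sample of day 2, against 7.03% of all genes. For Alb, each of these patterns held in the mean of its 2 probe sets and failed in 1 of the 2. The lowest p were those of Fetub (difference -0.47, SE 0.14, adjusted p = 0.475) and Serpina6 (-0.43, SE 0.14, adjusted p = 0.475), and 0 of all genes passed (0%; 871 had an unadjusted p under 0.05). Centred on the other bright genes, the median difference of the carriers was -0.048, and 6 of 10 were lower at day 7. Between days 7 and 4 none of the carriers passed (lowest adjusted p 0.358 for Rbp4, difference -0.33), where 0.00961% of all genes passed higher and 0.0192% lower. Of the 10, 4 were higher at day 7 than at day 4 (median difference -0.023, beside -0.23 over the other bright genes), and 9 of 10 when centred on the other bright genes (median 0.20). The direction of that difference thus depends on the centring.

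The bright carriers also varied together over the 9 arrays. Over the 36 pairs of the 9 bright carriers, the correlation of the ratios had a median of 0.59, ranged from -0.020 to 0.96 and was above 0 in 35 pairs. After subtraction of the median of the other bright genes the median was 0.53, with 32 pairs above 0. The arrays are shared by all genes, so these values describe these arrays only. Whether pairs of other bright genes correlated less was not tested. The closest pair was Fetub and Serpina6 (r = 0.96), and Alb and Ttr correlated at 0.86, both about as high after the subtraction (0.96 and 0.86). Rbp4 correlated with Alb at 0.19, with Ttr at 0.44 and with Ambp at 0.76, and at -0.15, -0.066 and 0.32 after it. The 9 pairs with Serpina7 had a median of 0.066 and ranged from -0.37 (Rbp4) to 0.44 (Alb), and after the subtraction had a median of 0.21 and a range of -0.54 to 0.55.

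In the same samples, genes of several proteins known to increase in the acute phase rose. Of 20 measured positive acute-phase genes, 18 had a mean above 0 over the 3 days (median 0.22), and 6 passed higher and 0 lower, against 0.163% of all genes passing higher. They were A2m, the protease inhibitor alpha-2-macroglobulin (log2 1.27, SE 0.15, adjusted p = 0.0066), Orm1, the carrier orosomucoid (log2 0.78, SE 0.061, adjusted p = 0.00042), Lbp, which binds bacterial lipopolysaccharide (log2 1.16, SE 0.16, adjusted p = 0.014), Lcn2 (log2 1.19, SE 0.18, adjusted p = 0.022), C4bpa, which binds complement C4b (log2 0.50, SE 0.060, adjusted p = 0.0064), and Spink1, a trypsin inhibitor (log2 3.24, SE 0.36, adjusted p = 0.0046). Spink1 was dim, among the lowest 25% of genes by brightness, and its ratios ranged from 1.58 to 5.42. On single days 4 passed at day 2 (A2m, Orm1, C4bpa and Spink1), 0 at day 4 and 1 at day 7 (Orm1). The lowest of the list were Fgb, a fibrinogen chain, at -0.063 and the complement component C3 at -0.0010. This list and the ones below were chosen with results of these data known, so their counts are descriptions. Of 9 measured genes of other secreted liver proteins described as falling in the acute phase, none passed in either direction (median -0.028). Their lowest means were those of Igfals (-0.085) and Igf1 (-0.084), of the growth hormone axis. Their highest were those of Pon1, an esterase of high-density lipoprotein (0.066), and Mug1, a relative of A2m (0.23).

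**Figure D4:**
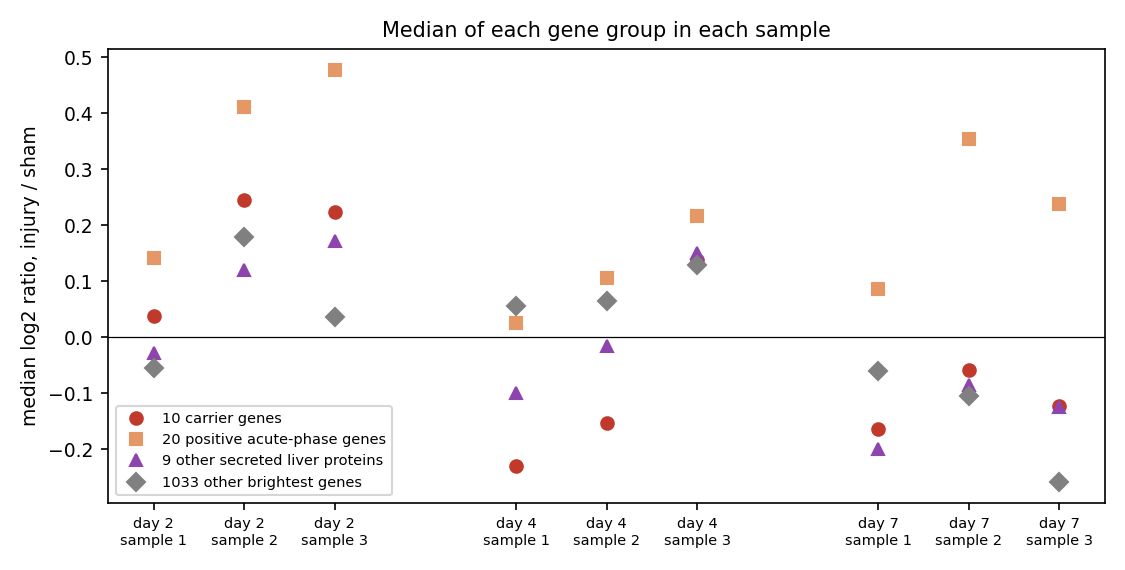
Median log2 ratio of injury over sham in each sample for the 10 carrier genes, 20 positive acute-phase genes, 9 other secreted liver proteins described as falling in the acute phase, and the 1033 other genes of the brightest 10%. The carriers lie below the positive acute-phase genes in every sample, and below the other bright genes in samples 1 and 2 of day 4 and sample 1 of day 7.

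Orm1, Lcn2 and Serpina10, relatives of the carriers by protein family, passed over the 3 days, while the carriers did not. Orm1 and Lcn2 are also among the positive acute-phase genes above. With the carriers counted, 2 of 7 measured lipocalins and 1 of 8 clade A serpins passed higher. In the fetuin and albumin families 0 of 4 genes each did, against 0.163% of all genes. Among lipocalins, which hold small molecules in a barrel, the carriers were Ambp and Rbp4 with the values above, and the relatives Orm1 and Lcn2, which takes up bacterial iron carriers. Orm1 had 1.06, 1.17 and 0.77 at day 2, 0.45, 0.33 and 0.39 at day 4 and 1.06, 0.82 and 0.96 at day 7, and Ambp lay below it in 9 of 9 arrays. Lcn2 had 2.14, 2.19 and 1.22 at day 2, 1.45, -0.10 and -0.0045 at day 4 and 0.71, 1.41 and 1.71 at day 7, and Rbp4 lay below it in 7 of 9, all but samples 2 and 3 of day 4. Next to Serpina6 in the genome stands Serpina10, the inhibitor of coagulation factor X, which rose over the 3 days (log2 0.45, SE 0.067, adjusted p = 0.019), with 0.61, 1.04 and 0.54 at day 2, 0.12, 0.41 and 0.29 at day 4 and 0.45, 0.32 and 0.29 at day 7. Serpina6 lay below it in 9 of 9 arrays. The kininogen gene Kng2l1, near Fetub, had 1.08, 1.45 and 0.44 at day 2, 0.32, 0.53 and -0.36 at day 4 and 0.72, 0.34 and 1.22 at day 7 and a mean of 0.64 that did not pass (adjusted p = 0.0729), and Fetub lay below it in 8 of 9. Hrg, a cystatin relative between them, was at -0.079 (adjusted p = 0.744) and lay above Ahsg in 4 of 9 arrays. Afp lay above Alb in 3 of 9. Of the other relatives, those with the lowest means were Apod (-0.72, adjusted p = 0.603) and Apom (-0.0084) among lipocalins, and Serpina3c (-0.13) and Serpina1 (-0.053) among serpins, none of which passed. The 4 relatives drawn beside their carriers were picked with their values known, and the differences from the carriers were not tested.

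**Figure D5:**
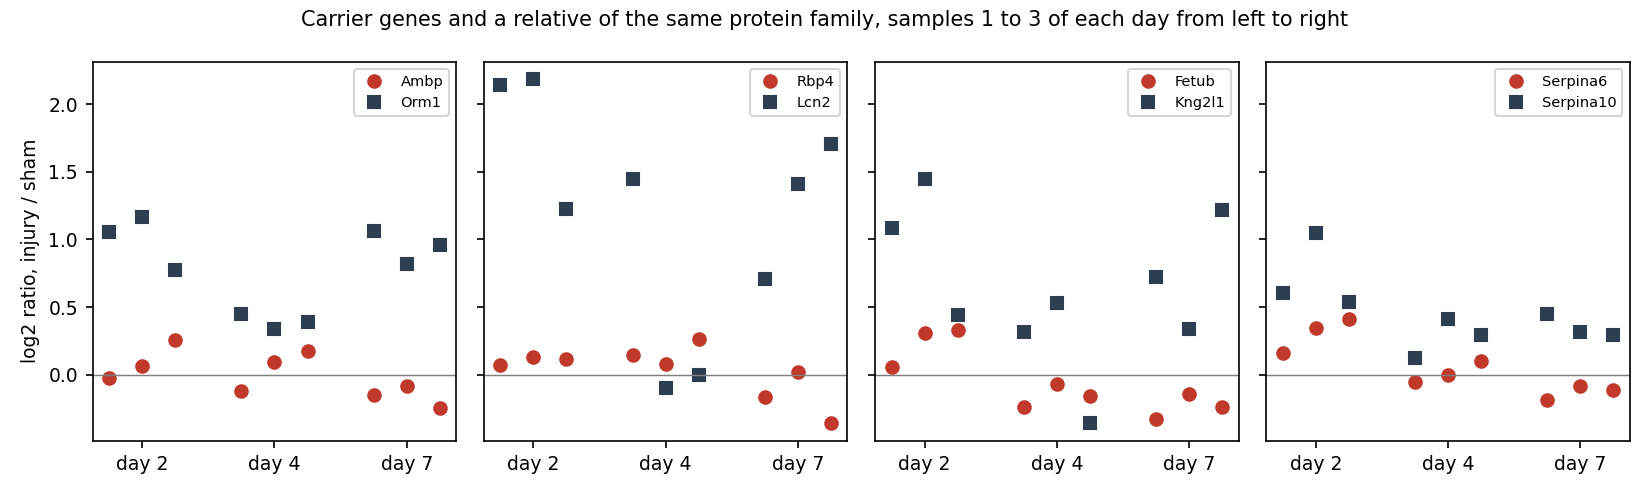
Log2 ratio of injury over sham in each sample for 4 carrier genes (circles) and a relative of the same protein family (squares), with samples 1 to 3 of a day from left to right. Ambp and Serpina6 lie below Orm1 and Serpina10 in all 9 samples, and Rbp4 and Fetub lie below Lcn2 and Kng2l1 in 7 and 8 of them.

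Genes that handle the carried hormones and vitamins were read from lists of the same kind. Of 11 measured retinoid genes none passed on the mean of the 3 days or on any day. Lrat, which stores retinol as an ester, was below 0 in 9 of 9 samples (mean -0.41, adjusted p = 0.203). Crabp1, a retinoic acid-binding protein, had the lowest mean at -0.68 (SE 0.41, adjusted p = 0.634). Its value in sample 2 of day 7 was -4.42, and the others lay between -1.41 and 0.86. Rxra, a retinoid receptor, and Stra6, the receptor of Rbp4, had the highest means, both at 0.42. None of 10 thyroid hormone genes passed, 2 of which were the carriers Ttr and Serpina7, and Thrsp, a thyroid-responsive gene of fat synthesis, was at 0.60 (adjusted p = 0.308). The lowest were the thyroid hormone receptor Thra at -0.55 and the transporter Slco1a4 at -0.37. Of 11 glucocorticoid genes, Dusp1, a phosphatase induced by stress and steroids, rose at day 2 (1.37 ± 0.62, SD, n = 3; adjusted p = 0.040) and did not pass at day 4 (-0.92) or day 7 (0.19). The glucocorticoid receptor Nr3c1 was at -0.11 over the 3 days (adjusted p = 0.836), its target Tsc22d3 at -0.10 and Pck1, of gluconeogenesis, at 0.15. None of 4 vitamin D genes passed, with the activating enzymes Cyp27a1 at -0.031 and Cyp27b1 at 0.10 and the receptor Vdr at 0.23. Among 13 transcription factors of the liver, 2 fell over the 3 days, against 0.163% of all genes. They were Onecut1, also called HNF6 (log2 -1.32, SE 0.19, adjusted p = 0.019), and the forkhead factor Foxa2 (log2 -0.74, SE 0.13, adjusted p = 0.049), each below 0 in 8 of 9 samples. The highest of that list were the nuclear receptors Nr0b2 at 0.81 and Nr5a2 at 0.45, which did not pass. These calls of genes other than the carriers depend on the variance prior. With a single prior for all genes, Orm1 still passed on the mean of the 3 days (adjusted p = 0.0263), and A2m (0.0935), C4bpa (0.0935), Spink1 (0.0563), Lbp and Lcn2 (0.133 each), Serpina10 (0.147), Onecut1 (0.133), Foxa2 (0.222) and Cela1 (0.154) did not, nor did Dusp1 at day 2 (0.222).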

How the data were processed

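The files hold 1 table of log2 ratios that the authors deposited, with a value for each of 15923 probe sets and 12 samples, measured per the labels on Affymetrix RAE230A arrays. The software, array scaling, ratio order and genome build were not given in the sources used here. Control probe sets (57) and the 3 day 1 samples were left out. By the platform annotation, 12783 probe sets have a single symbol, 312 have several and 2771 lack one. Of the first, 12748 had a gene ID in the GRCr8 table. Array medians lay between -0.13 and 0.16 before centring, and changes are relative to them. Correlations between 2 arrays over all probe sets ranged from -0.10 to 0.15.

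Genes were fitted with limma 3.58.1 in R 4.3.3 (a mean per day over 9 arrays, eBayes with the variance prior following brightness, Benjamini-Hochberg adjustment over 10411 genes, threshold 0.05), and all adjusted p and 95% intervals come from it. Whole-number pairs behind the ratios were found by continued fractions within a tolerance of 1e-09. With numbers up to 3000, 66.4% to 69.4% of the ratios of an array were matched, against at most 0.334% of shifted values. Brightness used numbers up to 65535. Large pairs, which include those of the bright carriers, match by chance and say only that a probe set is bright. The number of arrays limits the precision. All carriers were named, and in each other list except those of cell markers also the genes passing and the 2 highest and 2 lowest means. Of the cell markers, those passing were named, with examples from some lists. The members and lists were chosen with earlier results of these data known. Same-numbered samples of different days had deviations that correlated between -0.041 and 0.068, so the numbers were not taken as pairs.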

Additional observations from a re-analysis of the deposited data

Results flagged for a closer look

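In 3 carriers all 3 samples of day 2 lay above 0 and all 3 of day 7 below it, a pattern held by 2.09% of all genes and 6.0% of the other bright genes. For Alb it held in the mean of its 2 probe sets and in 1367555_at. It did not hold in 1367556_s_at, which had 0.15 in sample 2 of day 7. The day 7 minus day 2 difference was -0.23 for Alb (95% interval -0.58 to 0.12, limma adjusted p = 0.729), -0.47 for Fetub (-0.78 to -0.15, adjusted p = 0.475) and -0.43 for Serpina6 (-0.73 to -0.14, adjusted p = 0.475). In Fetub the samples of day 2 and day 4 also lay on opposite sides of 0, with a day 4 minus day 2 difference of -0.39 (adjusted p = 0.480). None of these differences passed. Centred on the other bright genes, the day 7 minus day 2 difference was -0.036 for Alb, -0.27 for Fetub and -0.24 for Serpina6.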

How the results depend on the processing

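In the 18 alternative fits, of which 2 (centring on the brightest 10% of genes, and probe sets in place of genes) were added after seeing the data, 0 carriers passed in the mean of the 3 days, on any day, in the F test or between days 7 and 2, and the lowest adjusted p was 0.127 (limma). With the sample number as a replicate block, 0 carriers passed (lowest adjusted p 0.339 for the mean) and it changed no other call of a carrier. Of 680 carrier values under an alternative, 676 moved by less than the spread between samples and 4 by more, those of Rbp4, Fetub, Ambp and Serpina6 at day 7 when centred on the brightest 10%. Many of the 676 could not move. The single prior, the fit without dim genes and the block leave each estimate as it was. Leaving out 1 sample leaves the other days as they were, and most carriers have only 1 probe set to choose. An uncalled value took the other sign in 22 cases. Without any 1 sample, 8 to 9 carriers were above 0 at day 2, 2 to 6 at day 4 and 2 at day 7. Over all genes the number passing depended more on the fit. For the mean of the 3 days it was 34, 4 with a single variance prior and 11 to 40 without 1 sample. For day 2 it was 15, 0 with a single prior, 5 with the block and 0 to 17 without 1 sample. For day 4 it was 0, 42 with array weights, 4 with scaled arrays and 0 to 6 without 1 sample. For day 7 it was 5, 0 with a single prior, 2 with the block, 10 without centring or centred on the brightest 10%, 8 without dim genes, 9 by probe set and 1 to 12 without 1 sample. Of 20 calls of named genes other than the carriers, that of Orm1 over the 3 days held in 17 of 17 alternatives by gene, those of A2m and C4bpa in 16, Lbp in 14, Serpina10 in 12, Lcn2 in 11, Onecut1 in 10, Cela1 in 8, Foxa2 in 6 and Dusp1 at day 2 in 3. The call of Spink1 over the 3 days held in 15 of 16, as the fit without dim genes left it out. The cause of the differences between fits was not tested. With 3 arrays a day, small changes of the dim Serpina7 could not be told from its spread.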

Other observations

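Among 5197 other genes of at least median brightness, the 5 whose ratios followed the mean of the 10 carriers most closely over the 9 arrays were Slc35f5, a membrane transporter (r = 0.97), Plg, plasminogen (0.94), Apoh, a phospholipid-binding plasma protein (0.93), Lman2l, a lectin of the secretory pathway (0.93), and Mgst1, a microsomal glutathione transferase (0.92). Plg, Apoh and Mgst1 were also the 3 nearest to Ttr (r = 0.98, 0.94 and 0.95). The nearest to Alb were Rara, a retinoic acid receptor (0.96), Slc35f5 (0.93) and Dhrs3, a retinal reductase (0.93). Those nearest to Rbp4 were Hagh, a glyoxalase (0.97), Rarres2, which encodes the adipokine chemerin (0.95), and Marcksl1 (0.94). The most opposed to the mean of the carriers were Zfp455 (-0.90), Tead2 (-0.88) and Ephb4 (-0.87). With so many genes and 9 arrays, high values occur among unrelated genes, and these are descriptions.

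Of the hepatocyte markers, Apob, the structural protein of very low-density lipoprotein, was the 1 of 12 that passed, higher at day 2 (0.70 ± 0.12, SD, n = 3; limma adjusted p = 0.029) and day 7 (0.86 ± 0.17; adjusted p = 0.012), with -0.42 ± 0.021 at day 4 (adjusted p = 0.190). These calls rest on the mean of 2 probe sets, and with the brighter one alone Apob did not pass over the 3 days (adjusted p = 0.743), at day 2 (0.868) or at day 7 (0.644). Samples 1 to 3 of day 2 had hepatocyte marker medians of -0.044, 0.17 and 0.22, those of day 4 had -0.085, 0.015 and 0.048 and those of day 7 had -0.21, -0.049 and -0.11.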
